A study of Drosophila melanogaster with 6 samples.

Results

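The genes described here are puc, bsk, hep, kay, Jra, rpr, grim and th, which belong to the Jun N-terminal kinase (JNK) pathway and to the control of cell death. They were taken by name from the gene field of the authors' deposited table, and the names were set with earlier results of these data known. All 8 were present, each with a row of its own among the 8164 gene rows. Fruit fly midguts were dissociated and their GFP-positive cells sorted, giving 3 libraries at 59 to 65 days (old) and 3 at 6 to 8 days (young), with a separate batch of guts behind each. Flies of both ages were yw and carried the driver esg-GAL4 NP5130 together with the reporters UAS-GFP and UAS-GFPnlacZ (N 1099). The escargot (esg) driver is active in intestinal stem cells and in their immediate daughters, so the sorted population is enriched for stem cells without being made of them alone. The question was which transcripts of this population differ between old and young animals.

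JNK signalling is a stress-activated kinase cascade. An upstream kinase activates the JNK kinase Hemipterous (hep), which phosphorylates the fly JNK Basket (bsk), and Basket in turn activates Jun (Jra) and Fos (kay), the partners of the transcription factor AP-1. The phosphatase Puckered (puc) is made in response to JNK activity and switches Basket off again, which is why puc is widely used as a readout of the pathway. In the fly midgut the pathway is known for driving stem cell proliferation under stress and in old animals. Cell death is held back by Diap1, the product of thread (th), a ubiquitin ligase that restrains caspases. Reaper (rpr) and Grim (grim) are short proteins that bind Diap1 and release the caspases.

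For each row the authors' deposited table gives a log2 fold change between the ages, a mean abundance over the libraries as log2 CPM (reads scaled to a common library total), and a p-value before and after adjustment. A row is named as called where its deposited adjusted p is under 0.05. Which age stands on top of the fold change is not stated. A positive value therefore means higher at one of the ages, a negative value higher at the other, and no direction with age can be read from the sign. The deposited tables also hold columns of counts and CPM per library, whose names match no sample label. They were not used, so no value or depth per library and no error of a fold change is given. The p-values rest on the spread between the 3 batches per age as the authors modelled it.

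Among the genes described here, the death activators rpr and grim were called, and the JNK genes and th were not. In the authors' deposited table rpr and grim were called with a positive sign, at log2 fold changes of 1.74 and 1.59, and none of the other 6 genes was called. All 5 JNK genes and th had a negative sign there, between -0.81 for puc and -0.10 for bsk. Of all rows, 46.2% had a negative sign. In the abundance ranges of these 6 genes the share was 58.8% from 20 to 100 CPM and 78.8% from 100 to 500 CPM. Across all rows 7.10% were called, 5.17% with a positive and 1.94% with a negative sign. At an unadjusted p under 0.05 the genes numbered 5, namely rpr, grim, Jra, puc and hep, where 19.3% of all rows passed that limit. In bulk samples of this kind, fewer cells of a type and less RNA per cell cannot be told apart.

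**Figure D1:**
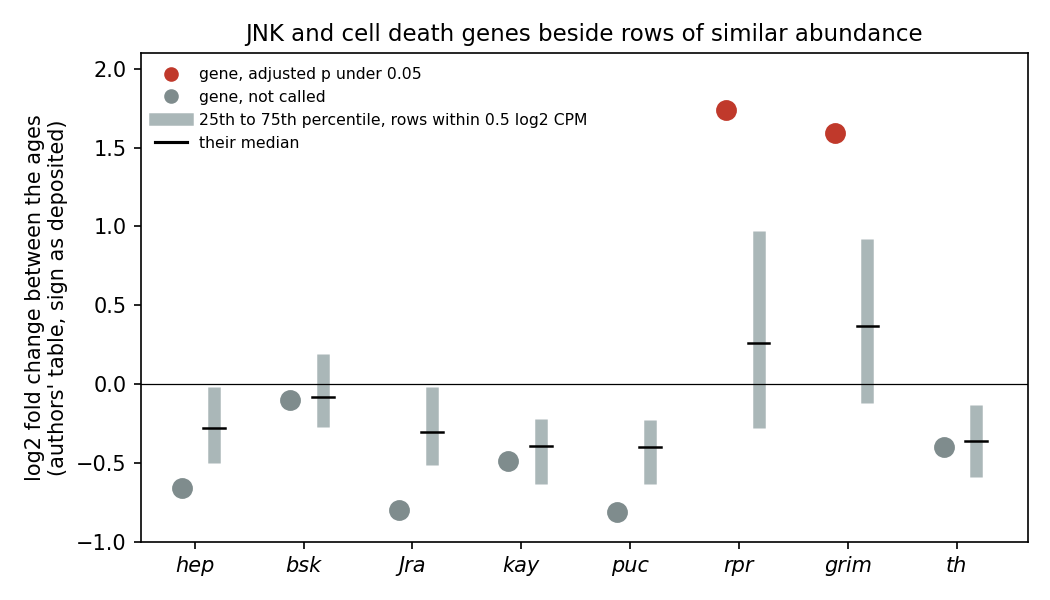
Log2 fold change between the ages in the authors' deposited table (vertical axis, sign as deposited) for each gene, as a dot, beside the median (line) and the 25th to 75th percentile (bar) of the rows within 0.5 log2 CPM of its abundance. The dots of rpr at 1.74 and grim at 1.59 lie above their bars, those of hep, Jra and puc lie below theirs, and those of bsk, kay and th lie within.

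Abundance separated the called genes from the rest. Mean abundance was 0.937 CPM for rpr and 1.76 CPM for grim, and only 3.09% and 10.3% of all rows were less abundant. The others lay between 39.9 CPM for bsk and 375 CPM for kay, and 5.12% of all rows of at least 100 CPM were called. Per kilobase of annotated exon the highest mean levels were 108 CPM for puc, 105 CPM for th and 104 CPM for Jra. Lower levels per kilobase were 49.1 CPM for kay, 31.3 CPM for hep and 19.8 CPM for bsk, and rpr and grim both stood at 1.04 CPM. Which of these levels differ cannot be said here, because the spread between libraries was not used.

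The sign of the fold change varied with abundance over the whole table. Rows from 1 to 2 CPM had a median log2 fold change of 0.39 and 32.6% negative signs. Rows from 100 to 500 CPM had a median of -0.32 and 78.8% negative signs, while the median over all 8164 rows was 0.05. Positive calls were also commoner among scarce rows, at 15.0% of the 976 rows under 2 CPM against 5.17% overall. Each gene is therefore set beside the rows within 0.5 log2 CPM of its own abundance. The part that this trend has in the values of the genes was not tested.

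**Figure D2:**
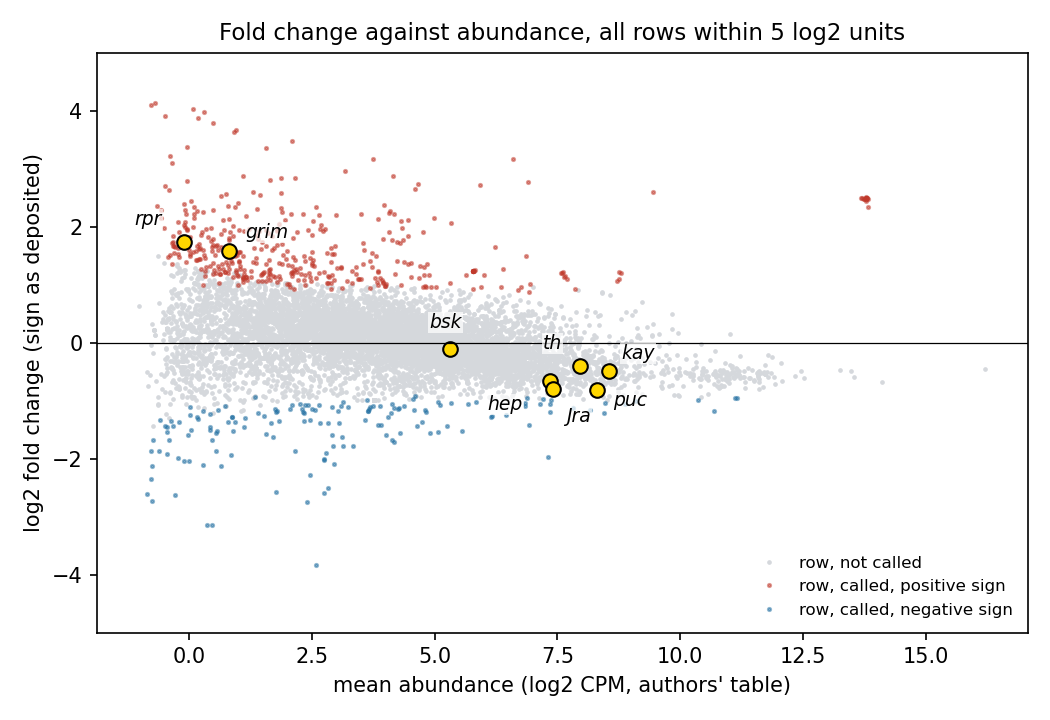
Log2 fold change (vertical axis, sign as deposited) against mean abundance in log2 CPM (horizontal axis) for rows in the authors' deposited table. Called rows are coloured, and the 8 genes are ringed dots with their names. The 10 rows beyond 5 log2 units are not drawn. The cloud slopes downward with abundance, rpr and grim sit at its scarce end among positive calls, and the JNK genes and th sit on or under its middle.

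The kinase genes hep and bsk had the lowest mean levels per kilobase of the 5 JNK genes, and neither was called. The JNK kinase gene hep (FBgn0010303, dm3 X from 12973240 to 12984466) stood at a log2 fold change of -0.66 per the authors' deposited table, at 163 CPM (p 0.0443, adjusted p 0.244). Rows of similar abundance had a median of -0.28, and 8.39% of them were more negative. The JNK gene bsk (FBgn0000229, 2L from 10247502 to 10250479) stood at -0.10 per the authors' deposited table, at 39.9 CPM (adjusted p 0.896). Its value lay beside the median of -0.08 of rows of similar abundance.

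The genes of both AP-1 partners had negative values and neither was called. The difference between the values was not tested. Jra (FBgn0001291, 2R from 5983985 to 5986061), the Jun gene, stood at a log2 fold change of -0.80 per the authors' deposited table, at 171 CPM (p 0.0167, adjusted p 0.135). This is a difference of 1.74-fold between the ages that did not pass the test, and 3.97% of the rows of similar abundance were more negative. The row of CG1381, on the opposite strand, overlaps the last 39 bases of Jra and had 0.08 in the authors' deposited table. The Fos gene kay (FBgn0001297, 3R from 25592497 to 25619838) stood at -0.49 per the authors' deposited table (adjusted p 0.506), at 375 CPM, the highest mean CPM of the 8. Rows of similar abundance had a median of -0.39, and 43.2% of them were more negative than kay. The gene fig lies inside the span of kay on the opposite strand, and its exons overlap none of those of kay in the BDGP6 annotation. It stood at -0.91 per the authors' deposited table, at 1.67 CPM (adjusted p 0.209).

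The feedback phosphatase gene puc (FBgn0243512, 3R from 3931057 to 3948023) had the most negative value of the 8. In the authors' deposited table its log2 fold change was -0.81 at 316 CPM, with a p of 0.0196 and an adjusted p of 0.149. The size corresponds to 1.76-fold between the ages. Of the 231 rows of similar abundance, whose median was -0.40, 6.06% were more negative and 4 were called negative. No other row of the table overlaps puc. Among all 8164 rows, puc stood at rank 1069 by p and Jra at rank 1012. Of the 5 JNK genes Jra, puc and hep had an unadjusted p under 0.05, all with a negative sign, and 7.48% of all rows had an unadjusted p under 0.05 with that sign. Among rows of at least 100 CPM, to which all 3 belong, this share was 16.4%.

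The genes rpr and grim had nearly the same result in the comparison. For rpr (FBgn0011706, 3L from 18390653 to 18391503), the authors' deposited table gave a log2 fold change of 1.74, or 3.35-fold, at 0.937 CPM, with a p of 7.36e-05 and an adjusted p of 0.00212. For grim (FBgn0015946, 3L from 18295819 to 18297514), the authors' deposited table gave 1.59, or 3.01-fold, at 1.76 CPM, with a p of 8e-05 and an adjusted p of 0.00228. By p they stood at ranks 284 and 286 of the table. Rows of similar abundance had a median of 0.26 for rpr and 0.37 for grim, and 14.3% and 14.0% of them were called positive. Of these rows, 7.86% were more positive than rpr and 5.57% more positive than grim. The noncoding genes asRNA:CR45974 on the opposite strand and lncRNA:CR45975 on the same strand overlap the exon of grim by 749 and 541 bases in BDGP6. The library kit named in the labels does not mark strand, so reads in the shared stretches cannot be assigned to one gene. No gene of the annotation overlaps rpr.

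The inhibitor gene th (FBgn0260635, 3L from 16031505 to 16043755), listed as Diap1 in the annotation, stood at a log2 fold change of -0.40 per the authors' deposited table, at 251 CPM (adjusted p 0.604). It lay near the median of -0.36 of the rows of similar abundance. The antisense gene asRNA:CR45889 overlaps its exons by 164 bases in BDGP6. The sign of th was opposite to that of rpr and grim. Of the rows of similar abundance, 82.5% had a negative sign for th, against 36% for rpr and 31.7% for grim. The differences between the fold changes of th, rpr and grim were not tested.

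The genes rpr and grim lie beside each other on 3L in a cluster of death genes that also holds Wrinkled (W, also known as hid) and sickle (skl). In the table no row lies between grim and rpr, whose lower ends are 94.8 kb apart, and none other than grim lies between W and rpr. The other activator with a row, W, stood at a log2 fold change of 0.24 per the authors' deposited table (adjusted p 0.718). Its abundance of 51.3 CPM was above the 1.76 CPM of grim and the 0.937 CPM of rpr. On the other side of rpr, CG32196 stood at 0.55 per the authors' deposited table (adjusted p 0.443). Among the 17 rows within 300 kb of rpr, grim and rpr were the 2 that were called. Both were among the genes chosen with earlier results known, and the window was set around rpr. None of the other rows in this window was called, where 7.10% of all rows were. The gene skl was not analysed here.

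**Figure D3:**
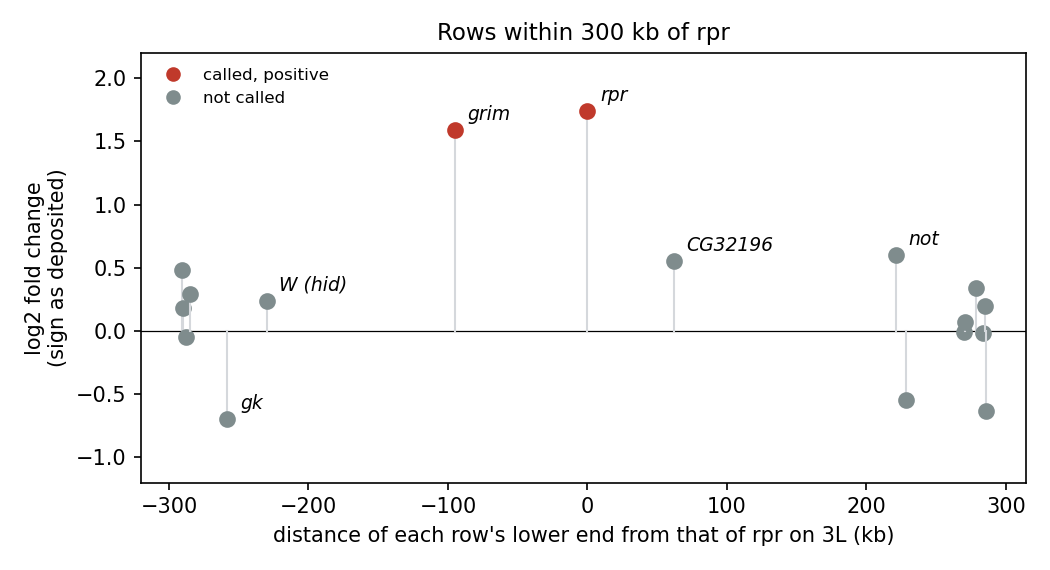
Log2 fold change in the authors' deposited table (vertical axis, sign as deposited) of the 17 rows within 300 kb of rpr, against the distance in kb of each row's lower end from that of rpr (horizontal axis). The called rows grim at 1.59 and rpr at 1.74 stand next to each other, and W (hid) at 0.24 and the other rows are not called.

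Beyond these genes, a list of 26 JNK pathway genes had 24 with a row. Of these, 1 was called positive and none negative, with a median log2 fold change of -0.22 and 19 negative signs. Over all rows 7.10% were called and 46.2% had a negative sign, and the share of negative signs was 58.8% from 20 to 100 CPM and 78.8% from 100 to 500 CPM. The median abundance of the list was 63.2 CPM. Without hep, bsk, Jra, kay and puc, 1 of 19 was called and the median was -0.18. Of these 19, 3 had an unadjusted p under 0.05, where 19.3% of all rows passed that limit. The call was Aplip1, which encodes a JNK scaffold that ties cargo to kinesin motors. It stood at 2.26 per the authors' deposited table (adjusted p 1.85e-05), at a mean of only 1.22 CPM. The upstream kinase gene msn, at 600 CPM the most abundant of the list, stood at -0.88 per the authors' deposited table (adjusted p 0.0854). Mmp1, a matrix protease gene known as a JNK target, stood at -0.90 per the authors' deposited table, at 197 CPM (adjusted p 0.0794). Both missed the threshold, and both had the sign of puc and Jra.

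Further pathway genes lay closer to zero. The kinase gene Mekk1 and the adaptor gene Tab2 stood at -0.29 and -0.06 per the authors' deposited table (adjusted p 0.715 and 0.99). The transcription factor genes A3-3, which encodes Atf3, and foxo stood at -0.53 and -0.37 per the authors' deposited table (adjusted p 0.458 and 0.611). The gene of the tumour necrosis factor ligand Eiger, egr, stood at -0.22 per the authors' deposited table (adjusted p 0.803). The receptor genes grnd and wgn were not analysed here.

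Of 27 cell death genes, 26 had a row, 3 were called positive and 1 negative, and the median log2 fold change was -0.12. Over all rows 5.17% were called positive and 1.94% negative, with a median of 0.05. Without rpr, grim and th, 1 of 23 was called in each direction. The caspase gene Damm was positive at 1.06 per the authors' deposited table (adjusted p 0.0436) at 2.96 CPM. The caspase gene dream, which encodes Strica, was negative at -1.17 per the authors' deposited table (adjusted p 0.0119) at 24 CPM. The gene of the initiator caspase Dronc, Nc, stood at -0.85 per the authors' deposited table (adjusted p 0.0903). That of its activating partner, Ark, stood at -0.57 per the authors' deposited table (adjusted p 0.351). The effector caspase gene decay stood at -0.31 per the authors' deposited table (adjusted p 0.674).

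Inhibitors of cell death other than th, and the further regulators named here, were not called either. Bruce, the gene of a very large relative of the inhibitor family, stood at -0.76 per the authors' deposited table (adjusted p 0.163), and Iap2, which encodes Diap2, had -0.14 at an adjusted p of 0.847. The gene of the caspase-limiting ubiquitin ligase dnr1 stood at 0.53 per the authors' deposited table, at 475 CPM (adjusted p 0.288). Tango7, which encodes a translation initiation factor subunit that also takes part in caspase activation, stood at -0.71 per the authors' deposited table (adjusted p 0.146). The engulfment receptor gene drpr shares its row with CG18171 and Oseg4, and that row stood at 0.26 per the authors' deposited table (adjusted p 0.659). Over both lists, 4 of the 7 genes under 5 CPM were called, all positive, where 11.9% of all rows under 5 CPM were called positive. These calls include rpr and grim, which were chosen with earlier results known, and the others were Aplip1 and Damm. Of the 43 genes at 5 CPM or more 1 was called, negative, where 4.34% of all such rows were called in either direction.

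**Figure D4:**
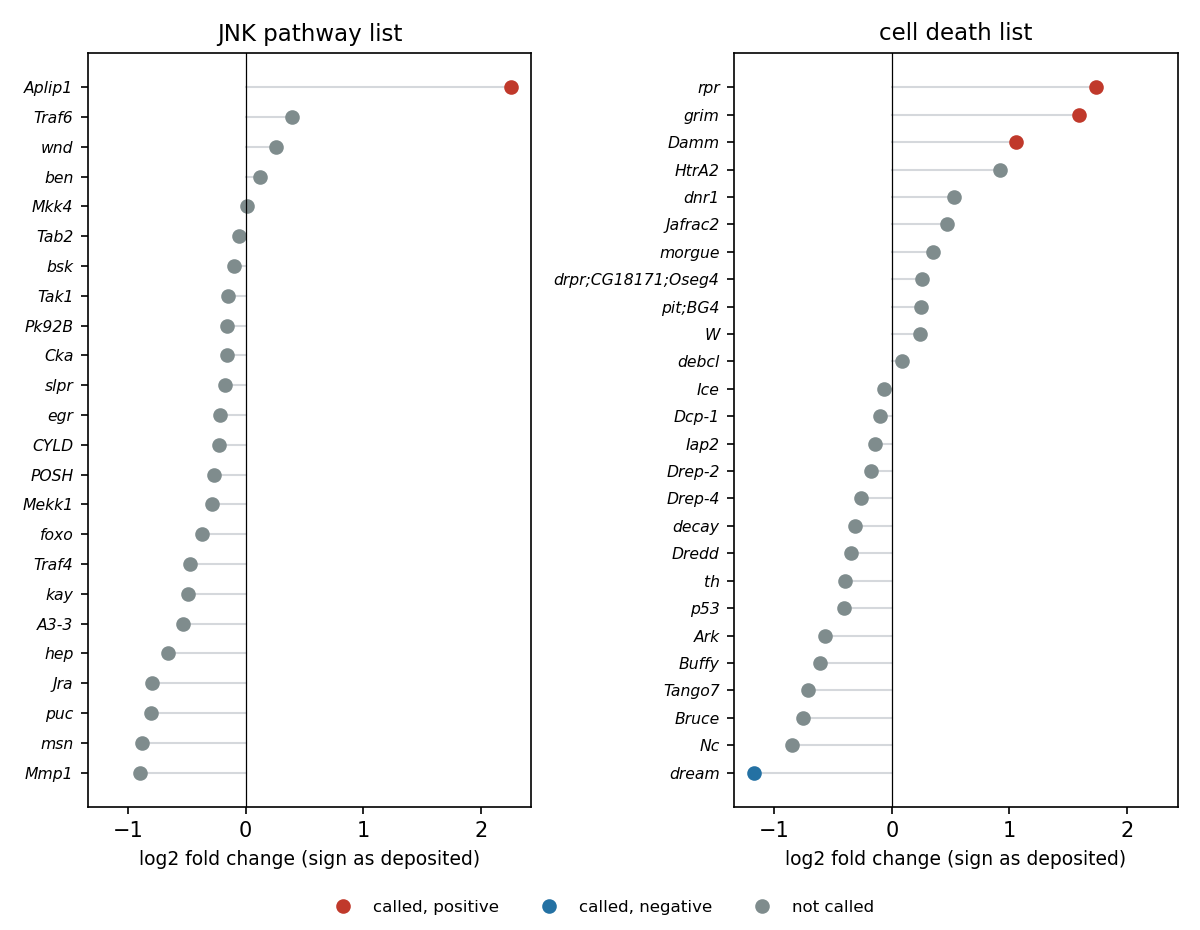
Log2 fold change in the authors' deposited table (horizontal axis, sign as deposited) of the 24 JNK pathway genes and the 26 cell death genes with a row, sorted by value, with called genes in colour. Aplip1 at 2.26 stands alone in the JNK list, and rpr, grim and Damm lead the cell death list, with dream at its other end.

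Markers of cell types in the sorted population were read in the same table. Over all rows 5.17% were called positive and 1.94% negative, and 46.2% had a negative sign. Of 10 progenitor markers with a row, none was called and 1 had an unadjusted p under 0.05, with a median log2 fold change of -0.35 and mean levels from 6.37 to 835 CPM. The driver gene esg stood at -0.41 per the authors' deposited table, at 835 CPM (adjusted p 0.548), and the stem cell marker Dl 0.13 at an adjusted p of 0.909. The marker lists were chosen with earlier results of these data known and do not hold every gene of a cell type. The listed enteroendocrine markers, of the hormone-secreting cells, had the sign of rpr and grim in all 7 rows, 5 of them called, with mean levels from 3.69 to 696 CPM. The hormone gene sNPF, outside the list, had the other sign, at -1.90 per the authors' deposited table (adjusted p 1.5e-05). Ast-C stood at 2.78 per the authors' deposited table (adjusted p 1.09e-12), and pros 0.70 at an adjusted p of 0.191. Of 7 enterocyte markers, 1 was called positive and 3 negative, and nub stood at 0.84 per the authors' deposited table (adjusted p 0.221). Of 4 listed visceral muscle markers 3 were called positive, among them up at 2.30 per the authors' deposited table (adjusted p 8.23e-07). The other, Act57B, stood at -0.23 in a row shared with a snoRNA (adjusted p 0.756). Outside the list the muscle genes zormin and Act79B were called negative, at -1.67 and -1.68 (adjusted p 5e-05 and 0.00578). The row of sls, one of the listed markers called positive, is 1 of 15 that lie within 0.2 log2 units of it in both fold change and abundance. Whether the sls row reads muscle transcripts was not tested. The part of these cell types in the results of rpr, grim and Aplip1 was not tested.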

How the data were processed

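RNA of GFP-sorted midgut cells was sequenced in 3 libraries from old and 3 from young flies. The kit was Illumina's TruSeq RNA, which is unstranded, per the labels' protocols. TopHat 1.2.0, Bowtie, edgeR and FastQC, and dm3 as the build, come from the submitters' processing notes, which assign them no step. The read counting step is not stated in these sources.

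The deposited values are the authors' log2 fold change, mean log2 CPM, p-value and adjusted p-value, per the file headers. The name of the full table speaks of an exact test. The deposited adjusted p-values differ from a Benjamini-Hochberg adjustment over all 8164 rows by at most 2.56e-15, and the second deposited table holds the 580 rows under 0.05. The 12 columns of counts and CPM per library match no sample label and were not used. The planned test on library counts was therefore not run, no gene of similar pattern across libraries was sought, and no test was added to the authors'.

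Mean CPM was computed as 2 to the power of the deposited mean. Starts in the table were taken to count from 0. Of 4737 single-transcript rows, 539 then have the genomic span of their transcript in BDGP6 (Ensembl release 115), against 138 otherwise. Most rows match under neither reading. Starts are written from 1. BDGP6 was used only for identifiers, exon lengths and overlaps. All listed transcripts of the 8 genes matched, save 1 of bsk and 1 of hep.

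The 8 genes and the lists were chosen with earlier results of these data known. Named besides them are list genes that were called or among the 10 most abundant of their list, neighbouring or overlapping rows, and 6 markers. The ligand gene egr and the marker sls were added after their values were seen. Alternatives were thresholds of 0.01 and 0.1, minimum abundances of 1 and 5 CPM, rows of a single gene, and at least a 2-fold difference. The adjustment was tested on simulated data. Computation ran in Python 3.11.15 with pandas 2.3.3, numpy 2.4.6, matplotlib 3.10.9 and, for the test on simulated data, scipy 1.17.1.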

Additional observations from a re-analysis of the deposited data

How the results depend on the processing

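Of the 8 genes, rpr and grim were called at thresholds of 0.01 and 0.1, over rows of a single gene and at a minimum of a 2-fold difference, as in the table as deposited. A minimum of 1 CPM, with p-values adjusted again, leaves out rpr, and 1 gene was called, grim, with an adjusted p of 0.0025. A minimum of 5 CPM, with p-values adjusted again, leaves out rpr and grim, and 0 of the remaining 6 were called. Of these 6, 3 had an unadjusted p under 0.05, all with a negative sign and at least 100 CPM. Of all rows of at least 100 CPM, 16.4% had such a p with that sign. Over rows of every abundance and either sign the share was 19.3%. None of the 6 was called under any alternative, with adjusted p for puc from 0.149 to 0.225 and for Jra from 0.135 to 0.202. In the JNK list 3 genes were called at a threshold of 0.1, with msn and Mmp1 added to Aplip1. At 5 CPM 0 of 23 were called. Of these 23, 5 had an unadjusted p under 0.05, all with a negative sign and at least 100 CPM. In the cell death list 2 were called at a threshold of 0.01 and 1 at 5 CPM. Over all rows, 376 were called at 0.01, 887 at 0.1 and 228 at 5 CPM. No paired analysis was possible because the results come from the authors' comparison and the library columns match no sample label. The planned fits leaving out a replicate and with DESeq2 size factors were not run, since those columns were not used. Whether a single library sets the values of rpr or grim, at abundances near 1 CPM, was not tested.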
